A study of Mus musculus with 12 samples.

Results

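The genes that write and oxidise DNA methylation were followed through mouse embryonic stem cells as they differentiated towards endoderm or mesoderm. The members are the DNA methyltransferase genes Dnmt1, Dnmt3a, Dnmt3b and Dnmt3l and the dioxygenase genes Tet1, Tet2 and Tet3, taken by gene symbol: 7 of the 19680 genes listed. Membership was set by symbol alone, but the 7 genes and the gene lists below were chosen with earlier results of these data known. Their shares are therefore set beside those of all genes as a description only. All cells were of the mouse embryonic stem cell line CJ9, either wild type or arid4b∆, a genotype in which Arid4b, a subunit of SIN3 histone deacetylase complexes, is labelled as deleted. The 12 libraries of total RNA form 4 groups of 3: wild type endoderm, arid4b∆ endoderm, wild type mesoderm and arid4b∆ mesoderm, each after 5 days of directed differentiation. The labels name no separate clones or cultures, so each p-value reflects only how much these libraries varied, which may be technical variation.

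DNA methylation in mammals sits mainly on the cytosine of CpG dinucleotides. Dnmt1 copies the methylation pattern onto the newly made strand after replication, Dnmt3a and Dnmt3b place methyl groups at new sites, and Dnmt3l, which has no catalytic activity of its own, binds and stimulates the de novo enzymes. The Tet enzymes oxidise 5-methylcytosine to 5-hydroxymethylcytosine and further forms, from which unmodified cytosine can be restored. As stem cells leave the naive state and resemble the post-implantation epiblast, Dnmt3b is known to be strongly expressed, and it is known to decline as germ layers form.

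In mesoderm-directed cells, 3 of the 7 genes were higher in arid4b∆ than in wild type, where 19.1% of all genes tested were called and 8.93% were called higher: Dnmt3b (2.24-fold), Tet1 (1.54-fold) and Dnmt3l (2.60-fold). In endoderm-directed cells 1 of the 7, Tet1, passed the test with a 1.53-fold rise, where 12.7% of genes were called and 5.78% called higher. None of the 7 was called lower in either lineage by edgeR or DESeq2, where 6.92% of genes in endoderm and 10.2% in mesoderm were. In wild type cells, Tet3 and Dnmt3b were higher in endoderm than in mesoderm and Dnmt3l was lower, 3 of the 7 where 9.84% of genes were called (4.41% higher and 5.43% lower). Dnmt3l could be tested only through its mesoderm libraries, so its call as lower is no support for that count. Dnmt1, Dnmt3a and Tet2 passed the test in no comparison. Each test was edgeR's quasi-likelihood test on all 11635 genes that passed a low count filter, with Benjamini-Hochberg adjustment at 0.05, and all 7 members passed the filter.

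Levels are given as CPM, that is, counts scaled to the effective library size after leaving out the ribosomal RNA gene Rn45s, which held 79.7% to 82.4% of each library. Total counts per library ran from 10351074 to 35660108, and 1949299 to 6678893 remained without Rn45s. Of these, the genes Mir6236 and Lars2 held 49.7% to 69.5%, which left 774342 to 2342887 counts for all other genes. In these libraries 3 counts, taken as the lowest level read as present, correspond to 0.505 to 1.55 CPM. The counts of Arid4b itself do not check the labelled deletion: they were 41.0 ± 3.97 CPM in wild type and 46.2 ± 4.28 CPM in arid4b∆ endoderm, and 42.0 ± 4.77 and 44.6 ± 2.96 CPM in mesoderm (SD, n = 3 each; adjusted p = 0.365 and 0.601, edgeR). The sources used here do not give the deleted bases, so the libraries are called arid4b∆ by their label.

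The lineage labels were read against marker genes. The summed level of 7 definitive endoderm markers was 156 to 245 CPM in wild type endoderm, 3.24 to 9.01 CPM in arid4b∆ endoderm, 5.74 to 10.8 CPM in wild type mesoderm and 2.77 to 4.53 CPM in arid4b∆ mesoderm, with Cer1 at 0 in both mesoderm groups. The summed level of 8 primitive streak and nascent mesoderm markers was 239 to 262 CPM in wild type endoderm, 236 to 496 CPM in wild type mesoderm, 19.2 to 24.9 CPM in arid4b∆ endoderm and 24.3 to 35.7 CPM in arid4b∆ mesoderm. Mesp1 was at 0 in arid4b∆ mesoderm and Cdx2 was at 0 in wild type endoderm. The arid4b∆ cells therefore carried their lineage label with few transcripts of the markers of that lineage. In these bulk libraries, fewer cells of a type and less RNA per cell cannot be told apart.

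The stretches of DNA that precede the transcription starts of the genes called in mesoderm are shown because they differ in content of CpG, where DNA methylation mainly sits. Each is the 250 bases before a start annotated by RefSeq on GRCm38.p6, read 5′ to 3′ on the gene's own strand in lower case, with every CpG in capitals. For Dnmt3l, which has 3 annotated starts, the window of the most upstream start is printed. The Tet1 and Dnmt3l windows lie inside the gene spans given below, which come from another annotation. Which starts these cells use was not tested.
Dnmt3b, chr2:153649199-153649448, plus strand: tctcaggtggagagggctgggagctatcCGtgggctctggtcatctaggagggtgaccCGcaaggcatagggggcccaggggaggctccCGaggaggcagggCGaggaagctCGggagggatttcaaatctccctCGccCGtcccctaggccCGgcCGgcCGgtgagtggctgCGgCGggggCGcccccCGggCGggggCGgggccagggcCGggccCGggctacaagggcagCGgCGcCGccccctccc
Tet1, chr10:62887325-62887574, minus strand: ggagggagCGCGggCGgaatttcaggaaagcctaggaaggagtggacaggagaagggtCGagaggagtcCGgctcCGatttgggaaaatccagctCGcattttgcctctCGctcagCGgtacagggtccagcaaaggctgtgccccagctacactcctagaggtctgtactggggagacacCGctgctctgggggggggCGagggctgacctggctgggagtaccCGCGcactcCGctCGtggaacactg
Dnmt3l, chr10:78042037-78042286, plus strand: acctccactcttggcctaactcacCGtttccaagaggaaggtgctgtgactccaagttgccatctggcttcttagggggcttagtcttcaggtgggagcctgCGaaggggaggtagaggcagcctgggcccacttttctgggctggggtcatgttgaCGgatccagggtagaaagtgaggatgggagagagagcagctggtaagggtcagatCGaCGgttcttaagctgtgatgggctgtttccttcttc
The Dnmt3b window held 21 CpG, the Tet1 window 15 and the Dnmt3l window 5, and the other windows of Dnmt3l held 4 and 3. The median of all 32851 windows of 27025 genes was 6 CpG, and 16.4% of the windows held at least as many CpG as that of Dnmt3b and 27.3% as many as that of Tet1. GGGCGG, the GC box, occurred on either strand 3 times in the Dnmt3b window, 1 time in the Tet1 window and not in the Dnmt3l window shown. The next Dnmt3l window held it 2 times and the last did not. It was in 32.7% of all windows. Each match is a description of these letters.

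Ranked per kilobase of exon, so that genes could be compared, Dnmt3b had the highest level of the 7 in every group: 139 ± 9.51 CPM per kb in wild type endoderm, 179.9 ± 18.0 in arid4b∆ endoderm, 71.3 ± 39.1 in wild type mesoderm and 159.7 ± 18.1 in arid4b∆ mesoderm (SD, n = 3 each). Dnmt1 came next in every group, at 21.4 to 26.5 CPM per kb as group means. Tet1 and Dnmt3a followed. Their library ranges overlapped in wild type endoderm (8.76 to 10.7 and 9.52 to 10.2 CPM per kb), in wild type mesoderm (8.39 to 10.1 and 7.98 to 9.54) and in arid4b∆ endoderm (12.01 to 15.7 and 10.9 to 12.2). In arid4b∆ mesoderm Tet1 (12.9 to 16.7) lay above Dnmt3a (9.66 to 10.2). Of the methyltransferase transcripts counted per kilobase, Dnmt3b made up 80.5% to 82.6% in wild type endoderm, 82.6% to 84.0% in arid4b∆ endoderm, 54.7% to 75.5% in wild type mesoderm and 76.4% to 83.0% in arid4b∆ mesoderm. Of the Tet transcripts, Tet1 made up 64.0% to 67.2%, 69.2% to 74.7%, 73.8% to 77.9% and 75.1% to 85.2% in the same order. Gene-level counts do not separate isoforms. Each of the 7 genes has 2 to 10 transcripts in the GENCODE basic annotation, and Dnmt1, Dnmt3a and Dnmt3l have several starts in RefSeq.

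**Figure D1:**
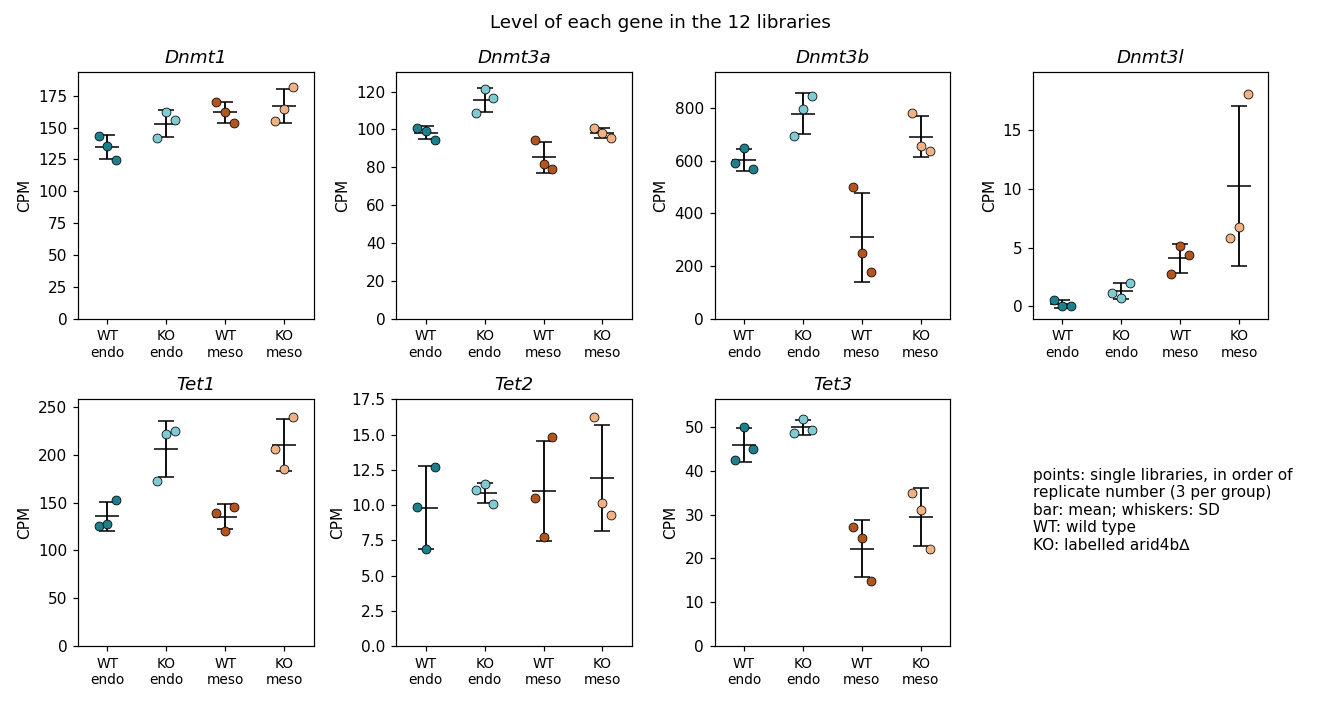
Each panel plots 1 gene, with the level in CPM on the y axis and the 4 groups on the x axis, 1 point per library, a bar at the group mean and whiskers of 1 SD. The 3 wild type mesoderm libraries of Dnmt3b spread from 178 to 499.6 CPM, below every arid4b∆ mesoderm library, and Tet1 is higher in all arid4b∆ libraries than in all wild type libraries.

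Dnmt1, the maintenance methyltransferase (GRCm38 chromosome 9, positions 20907209 to 20959888, minus strand), varied little. It was at 144, 136 and 125 CPM in the wild type endoderm libraries 1 to 3 and at 142, 162 and 156 CPM in those of arid4b∆. In mesoderm it was at 169.8, 162 and 154 CPM in wild type and 155, 165 and 182 CPM in arid4b∆. The genotypes overlapped in both lineages, with log2 fold changes of 0.19 ± 0.0936 in endoderm and 0.05 ± 0.0944 in mesoderm (SE; adjusted p = 0.22 and 0.778, edgeR). All wild type endoderm libraries lay below all wild type mesoderm libraries, with a log2 difference of -0.26 ± 0.0947 that did not pass the test (adjusted p = 0.0913, edgeR).

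Dnmt3a, one of the de novo methyltransferases (chromosome 12, positions 3806007 to 3914443, plus strand), was at 101, 99.3 and 94.4 CPM in wild type endoderm and 108, 121 and 117 CPM in arid4b∆ endoderm. In mesoderm it was at 94.5, 81.9 and 79.1 CPM in wild type and 101, 98.1 and 95.7 CPM in arid4b∆. Every arid4b∆ library lay above every wild type library of its lineage, but by little: the log2 fold changes were 0.24 ± 0.0892 in endoderm and 0.20 ± 0.0938 in mesoderm (SE; adjusted p = 0.0898 and 0.14, edgeR). Without wild type mesoderm library 1, the mesoderm value was 0.29 and passed (adjusted p = 0.0441, edgeR). In arid4b∆ cells all endoderm libraries lay above all mesoderm libraries (log2 difference 0.24 ± 0.0901, adjusted p = 0.23, edgeR).

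Dnmt3b, the other de novo methyltransferase (chromosome 2, positions 153649450 to 153687730, plus strand), was the most abundant of the 7 and the one whose level varied most in CPM. In mesoderm-directed cells it was at 499.6, 248 and 178 CPM in wild type libraries 1 to 3 and at 781, 657 and 635 CPM in arid4b∆. No arid4b∆ library overlapped a wild type library, and the wild type libraries differed from one another by more than the arid4b∆ libraries did. Dnmt3b rose in arid4b∆ mesoderm by 1.16 ± 0.222 on the log2 scale (SE; adjusted p = 0.000729, edgeR), and the value ran from 0.87 to 1.72 when single libraries were left out, past the threshold each time.

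In endoderm-directed cells Dnmt3b was at 592, 647 and 567 CPM in wild type and at 694, 795 and 846 CPM in arid4b∆. The groups did not overlap, and the log2 difference of 0.37 ± 0.216 did not pass the test when all 4 groups shared an estimate of the spread (adjusted p = 0.305, edgeR). It passed when the 2 endoderm groups were fitted alone (0.38, adjusted p = 0.0182, edgeR), when wild type mesoderm library 1 was left out (0.37, adjusted p = 0.0372) and with no filter on low counts (0.37, adjusted p = 0.00729). The knockout effect in endoderm minus that in mesoderm was -0.79 ± 0.309 for Dnmt3b and did not pass the test (adjusted p = 0.303, edgeR). Without wild type mesoderm library 1 this difference was -1.35 and passed (adjusted p = 6.11e-05), as it did with no filter on low counts (-0.80, adjusted p = 2.53e-05).

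The wild type mesoderm libraries also differed in their markers. In libraries 1, 2 and 3 the summed primitive streak and nascent mesoderm markers were at 236, 381 and 496 CPM, the 5 primed epiblast markers at 67.8, 37.6 and 32.8 CPM, and the 8 naive pluripotency markers at 38.7, 45.3 and 83.0 CPM. Dnmt3b was highest in the library with the lowest streak level and the highest primed level, and lowest in the library with the reverse. The gene T made up most of the streak sum, at 130, 212 and 315 CPM in libraries 1, 2 and 3. Eomes varied less (53.1, 59.8 and 61.3 CPM), and Mesp1 was highest in library 2 (3.99, 15.5 and 8.75 CPM). Of the 8 naive markers, Tbx3 had the highest mean in wild type mesoderm (32.37 ± 18.37 CPM, SD, n = 3). Tfcp2l1 was next at 7.789 CPM, and Zfp42 was at 6.984, 3.606 and 8.753 CPM in libraries 1, 2 and 3. Tbx3 was the only naive marker called in arid4b∆ mesoderm, as lower (-2.83, adjusted p = 1.179e-05, edgeR). The naive sum is therefore largely a reading of Tbx3. The primed epiblast markers summed to 226 to 262 CPM in wild type endoderm, 208 to 238 CPM in arid4b∆ endoderm and 138 to 171 CPM in arid4b∆ mesoderm. All 5 passed the test as higher in arid4b∆ mesoderm, where 8.93% of all genes tested were called higher. In arid4b∆ endoderm 2 were called higher, 1 lower and 2 not called, where 5.78% of genes were called higher and 6.92% lower. The part of these markers in the Dnmt3b values was not tested.

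**Figure D2:**
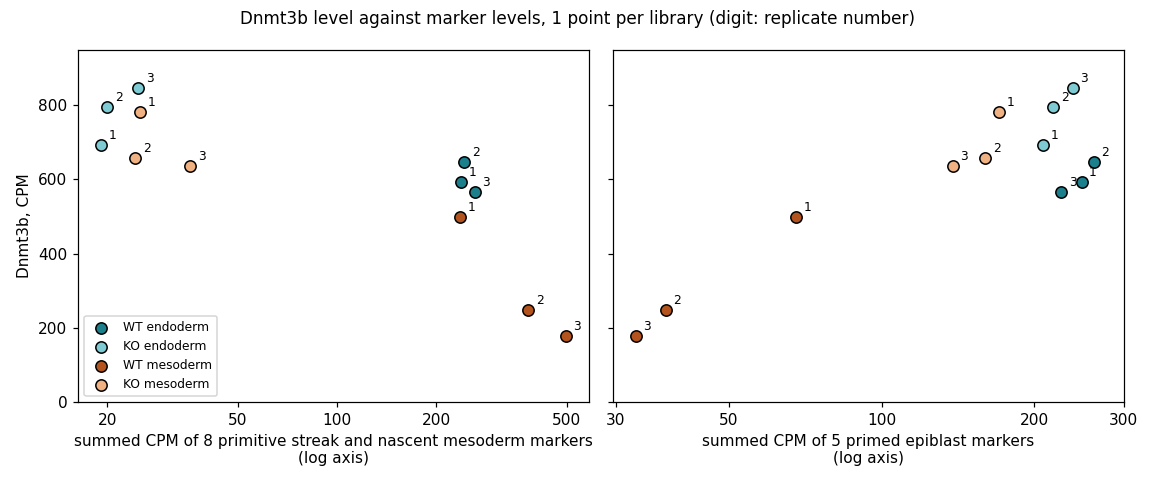
Each point is 1 of the 12 libraries, with the summed CPM of the streak markers (left) or the primed epiblast markers (right) on a log x axis and Dnmt3b in CPM on the y axis, coloured by group. The 3 wild type mesoderm libraries, with 236 to 496 CPM of streak markers and 32.8 to 67.8 CPM of primed markers, hold the 3 lowest Dnmt3b values, and wild type endoderm, with 239 to 262 CPM of streak markers, has Dnmt3b between 567 and 647 CPM.

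Dnmt3l, the catalytically inactive partner of the de novo enzymes (chromosome 10, positions 78041947 to 78063622, plus strand), was scarce. Its raw counts were 2, 0 and 0 in the wild type endoderm libraries, 4, 4 and 10 in arid4b∆ endoderm, 11, 10 and 26 in wild type mesoderm and 21, 22 and 68 in arid4b∆ mesoderm. In CPM these were 0.582, 0 and 0, then 1.16, 0.677 and 2.02, then 2.74, 5.15 and 4.38, and last 5.87, 6.77 and 18.1. Within each lineage every arid4b∆ library was above every wild type library, and within each genotype every mesoderm library was above every endoderm library. Dnmt3l passed the low count filter through its mesoderm libraries alone, in both genotypes. It could be tested between lineages only because it was high in mesoderm.

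Dnmt3l rose in arid4b∆ mesoderm by 1.38 ± 0.423 on the log2 scale (SE; adjusted p = 0.0248, edgeR), on 111 against 47 counts. That call rested on single libraries: without arid4b∆ mesoderm library 3 the value was 0.67 (adjusted p = 0.345), without wild type mesoderm library 1 it was 1.17 (adjusted p = 0.0712) and without wild type mesoderm library 3 it was 1.515 (adjusted p = 0.0617). In endoderm 18 counts stood against 2, a ratio of 8.07 after scaling with an exact 95% interval of 1.93 to 71.7 that covers counting error only, and the comparison did not pass the test (adjusted p = 0.0924, edgeR). It passed without wild type endoderm library 1 (adjusted p = 0.0469), which held both wild type counts, without arid4b∆ mesoderm library 3 (adjusted p = 0.042) and with no filter on low counts (adjusted p = 0.00721).

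Tet1, the main Tet transcript of these cells (chromosome 10, positions 62804570 to 62908996, minus strand), was at 126, 128 and 153 CPM in wild type endoderm and at 173, 221 and 225 CPM in arid4b∆ endoderm. In mesoderm it was at 139.7, 121 and 146 CPM in wild type and at 206, 186 and 240.2 CPM in arid4b∆. All 6 arid4b∆ libraries lay above all 6 wild type libraries. Tet1 rose by 0.61 ± 0.119 on the log2 scale in endoderm (adjusted p = 0.00123) and by 0.63 ± 0.121 in mesoderm (SE; adjusted p = 0.000774, edgeR). The calls were kept under every alternative run, with log2 values of 0.55 to 0.72 in endoderm and 0.52 to 0.71 in mesoderm. The difference between the 2 lineages' effects was -0.02 ± 0.169 (adjusted p = 0.996, edgeR), and Tet1 levels in the lineages of 1 genotype overlapped, with log2 differences of -0.01 in wild type and -0.03 in arid4b∆ cells (adjusted p = 0.985 and 0.967, edgeR).

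Tet2, the Tet gene best known from naive stem cells and blood (chromosome 3, positions 133463679 to 133545139, minus strand), was at 6.86 to 14.8 CPM in the 6 wild type libraries and at 9.33 to 16.2 CPM in the 6 arid4b∆ libraries. The groups overlapped in every comparison. The log2 fold changes in arid4b∆ cells were 0.20 ± 0.25 in endoderm and 0.02 ± 0.253 in mesoderm (SE; adjusted p = 0.693 and 0.98, edgeR). At 15 to 88 counts per library, Tet2 had a wider error than Tet1.

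Tet3, known for oxidising the paternal genome after fertilisation and for later roles in differentiation (chromosome 6, positions 83362373 to 83459084, minus strand), followed the lineage. It was at 42.5, 50.1 and 44.9 CPM in wild type endoderm and at 27.2, 24.7 and 14.8 CPM in wild type mesoderm. In arid4b∆ cells it was at 48.5, 51.8 and 49.3 CPM in endoderm and at 34.9, 31.1 and 22.1 CPM in mesoderm. Endoderm libraries lay above mesoderm libraries in both genotypes without overlap, by 1.12 ± 0.176 on the log2 scale in wild type (adjusted p = 0.000143) and by 0.77 ± 0.165 in arid4b∆ cells (SE; adjusted p = 0.0154, edgeR). The arid4b∆ call ended without endoderm library 2 (0.745, adjusted p = 0.0701) and without mesoderm library 3 (0.60, adjusted p = 0.142).

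Between genotypes Tet3 did not pass the test: the log2 fold change was 0.12 ± 0.153 in endoderm and 0.46 ± 0.19 in mesoderm (SE; adjusted p = 0.707 and 0.0956, edgeR). In mesoderm the highest wild type library lay above the lowest arid4b∆ library. That comparison passed without wild type mesoderm library 1 (0.72, adjusted p = 0.0118), without arid4b∆ mesoderm library 3 (0.64, adjusted p = 0.027) and with no filter on low counts (0.47, adjusted p = 0.0184).

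**Figure D3:**
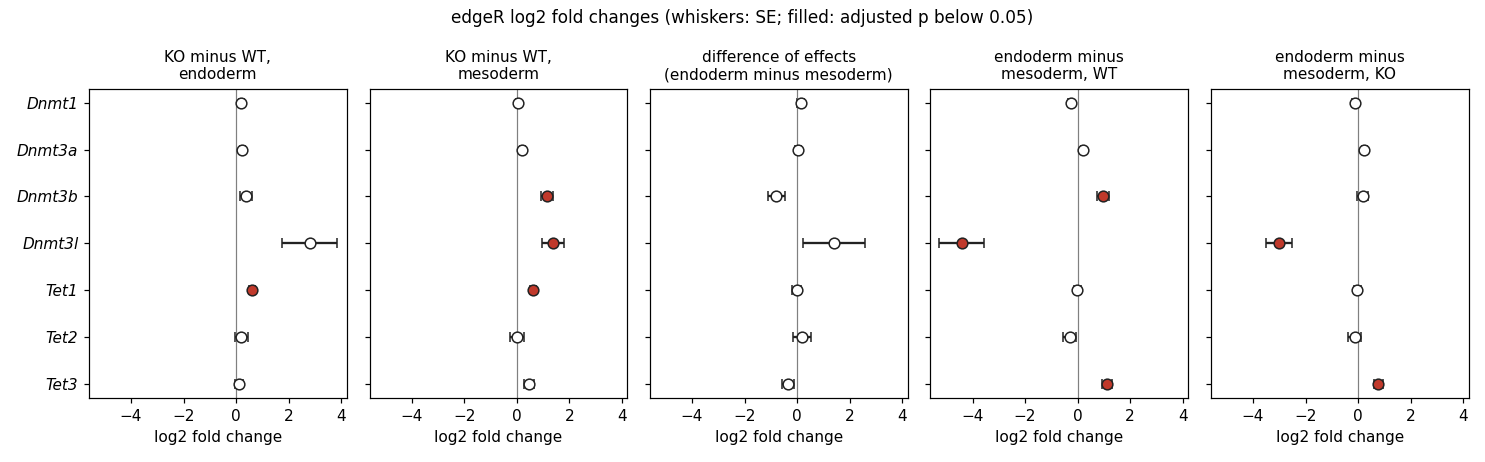
The log2 fold change of each gene is plotted on the x axis with whiskers of 1 standard error, in 5 panels for arid4b∆ over wild type in endoderm and in mesoderm, the difference of these effects, and endoderm over mesoderm in each genotype; filled points had an adjusted p under 0.05. The points of Tet1 sit at 0.61 and 0.63 in the genotype comparisons, and the Dnmt3l values that involve wild type endoderm rest on 2 counts in that group.

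In each lineage 4 of the 7 genes, Dnmt3a, Dnmt3b, Dnmt3l and Tet1, had all arid4b∆ libraries above all wild type libraries, where 14.7% of all genes tested did so in endoderm and 15.7% in mesoderm. These genes include every called one, Tet1 in endoderm and Dnmt3b, Dnmt3l and Tet1 in mesoderm. The count is therefore not separate from the calls. The median log2 fold change of the 7 was 0.24 in endoderm and 0.46 in mesoderm, beside -0.00 and 0.01 over all genes tested. None of the 7 passed edgeR's test of the difference between the lineages' effects, where 1.4% of genes did. Dnmt3b alone had an unadjusted p under 0.05 there (0.0181), and DESeq2 likewise called none.

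Between the lineages in wild type cells, Dnmt3b was higher in endoderm by 0.96 ± 0.222 on the log2 scale (SE; adjusted p = 0.00532, edgeR), a value that was 1.52 without wild type mesoderm library 1 and that DESeq2's Wald test did not call (adjusted p = 0.0537). Dnmt3l had 2 counts in endoderm and 47 in mesoderm, 25.3 times as many after scaling (exact 95% interval 6.63 to 215, counting error only; adjusted p = 0.00134, edgeR). Without wild type endoderm library 1 the endoderm counts were 0 in both remaining libraries. In wild type cells 4 of the 7, Dnmt1, Dnmt3b, Dnmt3l and Tet3, had lineages that did not overlap, where 24.6% of genes tested did not. In arid4b∆ cells 3 of the 7, Dnmt3a, Dnmt3l and Tet3, did not overlap, where 18.2% of genes did not, and 2 were called, where 1.86% of genes were (0.954% higher and 0.902% lower in endoderm): Tet3 as above, and Dnmt3l with 18 against 111 counts, 8.33 times as many in mesoderm (5.04 to 14.6; adjusted p = 0.00197, edgeR). Dnmt3b was not called between the lineages in arid4b∆ cells (0.17 ± 0.216, adjusted p = 0.822, edgeR), with libraries of the 2 lineages overlapping. Dnmt3l passed the low count filter through mesoderm libraries alone, so its lineage calls and its part in these counts are no support. The lineage comparisons share groups with those between genotypes, so their values are given side by side only.

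Ratios of 2 genes within a library need no scaling between libraries and were compared for 3 pairs. The log2 ratio of Dnmt3b to Dnmt3a was 2.61 ± 0.08 in wild type and 2.75 ± 0.096 in arid4b∆ endoderm, and 1.72 ± 0.626 in wild type and 2.81 ± 0.127 in arid4b∆ mesoderm (SD, n = 3 each). Averaged over both lineages, the ratio was 0.61 higher in arid4b∆ cells (two-sided exact permutation test within lineage over 400 arrangements, p = 0.01, adjusted over the 3 pairs 0.015). The ratio of Dnmt3b to Dnmt1 was 0.72 higher (exact permutation p = 0.005, the smallest that test can give, adjusted 0.015), with 0.18 in endoderm and 1.25 in mesoderm. Either ratio missed 0.05 when any 1 of the 3 arid4b∆ mesoderm libraries was left out, with exact permutation p-values of 0.095, 0.085 and 0.085 for Dnmt3b to Dnmt3a and of 0.075, 0.07 and 0.055 for Dnmt3b to Dnmt1 in library order. The differences themselves, in the same order, were 0.575, 0.628 and 0.631 for Dnmt3b to Dnmt3a, beside 0.61 with all libraries. For Dnmt3b to Dnmt1 they were 0.646, 0.73 and 0.777, beside 0.72. Within a single lineage the exact permutation test cannot go below p = 0.1.

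The third pair, Tet1 to Tet3, was 0.34 higher in arid4b∆ cells on the log2 scale and did not pass (exact permutation p = 0.165). Its group means were 1.56 ± 0.207 in wild type and 2.04 ± 0.186 in arid4b∆ endoderm, and 2.65 ± 0.564 and 2.86 ± 0.504 in mesoderm (SD, n = 3 each). Mesoderm library 3 had the highest value of its group in both genotypes, 3.30 and 3.44. Without wild type mesoderm library 3 the difference was 0.505, with an exact permutation p of 0.025. With the replicate number as a block it was 0.34 (exact permutation p = 0.0313), though the numbers were not read as pairs.

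**Figure D4:**
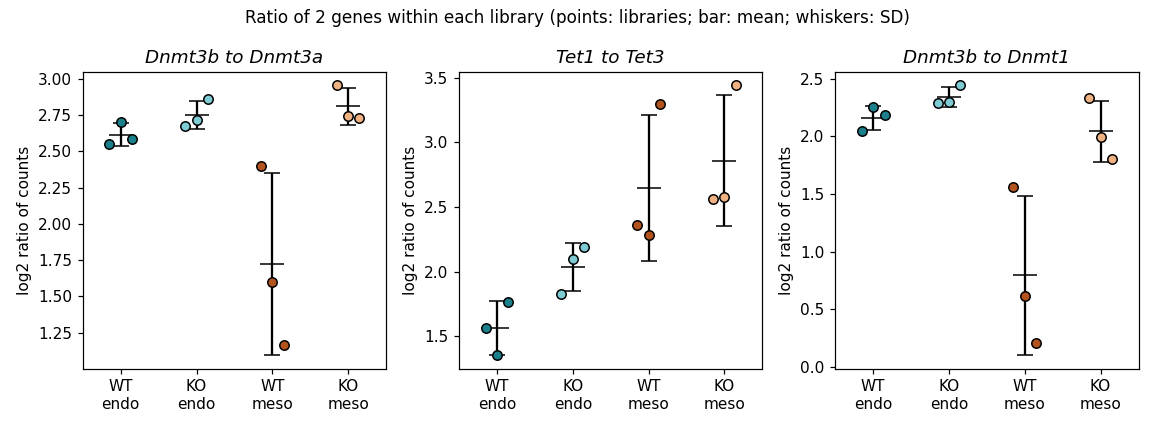
Each point is the log2 ratio of 2 genes within 1 library, on the y axis, by group on the x axis, with bars at the group means and whiskers of 1 SD. In wild type mesoderm the ratio of Dnmt3b to Dnmt3a runs from 1.17 to 2.40, below the 2.73 to 2.95 of arid4b∆ mesoderm.

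Other genes of DNA methylation were read from 6 lists with 73 genes in all, of which 57 were tested. The partners of maintenance methylation number 7, and Uhrf1, which recruits Dnmt1 to hemimethylated DNA, passed the test in no comparison, with group means of 102 to 118 CPM. Its paralog Uhrf2 was at 63.0 ± 8.50 CPM in wild type mesoderm and at 26.8 ± 4.05 CPM in arid4b∆ mesoderm, 34.1 ± 3.82 CPM in wild type endoderm and 32.9 ± 2.31 CPM in arid4b∆ endoderm (SD, n = 3 each). Uhrf2 fell in arid4b∆ mesoderm by 1.21 on the log2 scale (adjusted p = 9.45e-07), with a value of -0.06 in endoderm (adjusted p = 0.848), and the difference between the lineages' effects was 1.16 ± 0.184 (SE; adjusted p = 0.00101, edgeR). Usp7, a deubiquitinase that binds Dnmt1 and Uhrf1, and Hells, a chromatin remodeller needed for methylation in mice, rose in arid4b∆ mesoderm by 0.49 and 0.52 (adjusted p = 0.00102 and 0.00123, edgeR). In mesoderm the list thus had 2 members higher, 1 lower and 4 not called, where 8.93% of all genes tested were called higher and 10.2% lower.

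In endoderm, where 5.78% of genes were called higher, 2 of the 7 maintenance partners were, again Usp7 (0.36, adjusted p = 0.0149, edgeR) and Hells (0.32, adjusted p = 0.0473, edgeR). The Usp7 call ended without wild type endoderm library 1 or 2 and without arid4b∆ endoderm library 2 or 3 (adjusted p = 0.0711, 0.0632, 0.0513 and 0.0786). The Hells call ended without wild type endoderm library 1 or 2, without any of the arid4b∆ endoderm libraries, and without arid4b∆ mesoderm library 2 or 3, with adjusted p up to 0.201, and DESeq2 did not make it (adjusted p = 0.0689).

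Among 11 factors that direct or limit methylation, 10 were tested. Qser1, reported in human embryonic stem cells to protect promoters from the de novo enzymes, rose by 0.59 ± 0.118 in arid4b∆ endoderm and by 0.89 ± 0.123 in arid4b∆ mesoderm (SE; adjusted p = 0.00145 and 2.05e-05, edgeR), from 151 to 228 CPM and from 107 to 201 CPM as group means. Zfp57, which binds methylated imprinting control regions, fell by 1.04 in arid4b∆ endoderm, from 6.56 ± 0.478 to 3.27 ± 0.710 CPM (SD, n = 3 each; adjusted p = 0.0178, edgeR). The Zfp57 call ended without wild type endoderm library 2 or 3 (adjusted p = 0.0661 and 0.0577) and without arid4b∆ endoderm library 2 or 3 (adjusted p = 0.101 and 0.0641), and DESeq2 did not make it (adjusted p = 0.0593). The other 8 tested members were not called in endoderm, nor were the other 9 in mesoderm, where 12.7% and 19.1% of all genes tested were called.

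Of 18 genes of active demethylation and repair, 17 were tested. Of these, 1 was called higher and 1 lower in endoderm, where 5.78% of all genes tested were called higher and 6.92% lower. In mesoderm 1 was called higher and 2 lower, where 8.93% and 10.2% were. Gadd45g, a stress-inducible gene linked to demethylation, had 1 count in wild type endoderm and 29 in arid4b∆ endoderm, a ratio of 26.0 after scaling (exact 95% interval 4.31 to 1061, counting error only; adjusted p = 0.00294, edgeR). In mesoderm it rose from 0.646 ± 0.119 to 3.41 ± 0.491 CPM (SD, n = 3 each; adjusted p = 0.00913, edgeR), a call that ended without wild type mesoderm library 3 (adjusted p = 0.0551). Gadd45g passed the low count filter only through its arid4b∆ libraries, so it had to be high in arid4b∆ cells to be tested at all. As the only gene of the list called higher in either lineage, Gadd45g is no support for those counts. It was not tested in the fit of the endoderm groups alone. Cxxc5, a CXXC protein that binds Tet2, fell by 0.51 in arid4b∆ mesoderm (adjusted p = 0.0021, edgeR) and by 0.43 in endoderm (adjusted p = 0.00749, edgeR), the latter call ending without wild type or without arid4b∆ endoderm library 2 (adjusted p = 0.0652 and 0.0677). Ogt, a glycosyltransferase that binds Tet proteins, was the other gene called lower in mesoderm (-0.35, adjusted p = 0.0207, edgeR), and its call ended without wild type mesoderm library 2 or 3 (adjusted p = 0.0837 and 0.11) and without arid4b∆ mesoderm library 2 or 3 (adjusted p = 0.0567 and 0.0867). None of the 7 methyl-CpG readers was called between genotypes in either lineage by edgeR or DESeq2, and 0 had an unadjusted p under 0.05 (edgeR). Of all genes tested, 12.7% were called in endoderm and 19.1% in mesoderm.

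Of 13 genes that supply methyl groups, 5 were called higher and none lower in arid4b∆ mesoderm, where 8.93% of all genes tested were called higher and 10.2% lower. Mthfd2, a mitochondrial folate enzyme, rose from 9.07 ± 2.01 to 21.3 ± 2.78 CPM (SD, n = 3 each; adjusted p = 4.81e-05, edgeR), and in endoderm from 13.7 ± 1.22 to 21.9 ± 2.33 CPM (adjusted p = 0.00576, edgeR). Shmt1 and Shmt2, the cytosolic and mitochondrial serine hydroxymethyltransferases, rose in mesoderm by 0.59 and 0.44 (adjusted p = 0.00171 and 0.00767, edgeR). Mthfd1 was called there too (0.35, adjusted p = 0.0145, edgeR), but not without wild type mesoderm library 3 (adjusted p = 0.0852) or arid4b∆ mesoderm library 2 or 3 (adjusted p = 0.0661 and 0.052). Mat2a, which makes the methyl donor S-adenosylmethionine, was the fifth, named after its values were seen, at 0.37 ± 0.105 (SE; adjusted p = 0.0162, edgeR). The Mat2a call ended without the same libraries as that of Mthfd1 (adjusted p = 0.0565, 0.0765 and 0.0594). The count of the list was 3 without any 1 of them. In endoderm, where 5.78% of genes were called higher, 2 of the 13 were, Mthfd2 and Mtap (0.56, adjusted p = 0.00672, edgeR), the Mtap call ending without wild type or without arid4b∆ endoderm library 2 (adjusted p = 0.0695 and 0.0602).

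Of 17 germline genes that DNA methylation is known to keep silent, 16 were listed and 3 passed the low count filter. Ddx4, a germ cell RNA helicase, had 7 counts in wild type and 47 in arid4b∆ endoderm and 32 and 86 in mesoderm, and it was higher in arid4b∆ cells of both lineages (2.56 ± 0.574 and 1.58 ± 0.389, SE; adjusted p = 0.00419 and 0.00604, edgeR). Tdrd1, a Tudor protein of the piRNA pathway, had 6 and 31 counts in endoderm and 7 and 35 in mesoderm and was called higher in both (adjusted p = 0.0408 and 0.00916, edgeR). Tdrd1 passed the low count filter only through arid4b∆ libraries, and Ddx4 needed its arid4b∆ libraries to pass. The filter thus favoured the direction of both, and their count is no result about the list. Neither was tested in the fit of the endoderm groups alone, nor Tdrd1 in that of the mesoderm groups. The Tdrd1 call ended in endoderm with DESeq2 (adjusted p = 0.0888), and also without wild type endoderm library 2 or 3, arid4b∆ endoderm library 3, wild type mesoderm library 2 or any arid4b∆ mesoderm library, with adjusted p up to 0.247, and in mesoderm without wild type mesoderm library 3 (adjusted p = 0.0667). The 3 germ cell markers Dppa3, Dazl and Ddx4 summed to 0.565 to 0.873 CPM in wild type and 1.86 to 5.66 CPM in arid4b∆ endoderm, and to 2.58 to 3.74 and 7.38 to 11.7 CPM in mesoderm. Ddx4 made up most of these sums, with means of 0.517, 3.52, 2.64 and 8.04 CPM in the same order. Dppa3 and Dazl did not pass the low count filter. The sums are therefore no reading separate from that of Ddx4. The 8 fibroblast or feeder markers summed to 18.7 to 73.0 CPM in wild type (Lum at 0) and 76.0 to 261 CPM in arid4b∆ endoderm. In mesoderm they summed to 22.7 to 99.5 CPM in wild type and 88.0 to 209 CPM in arid4b∆ cells, ranges that overlapped. Of 6 tested, 4 were called higher in endoderm, where 5.78% of all genes tested were, and 1 in mesoderm, where 8.93% were. The part of these marker lists in the results on the members was not tested.

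**Figure D5:**
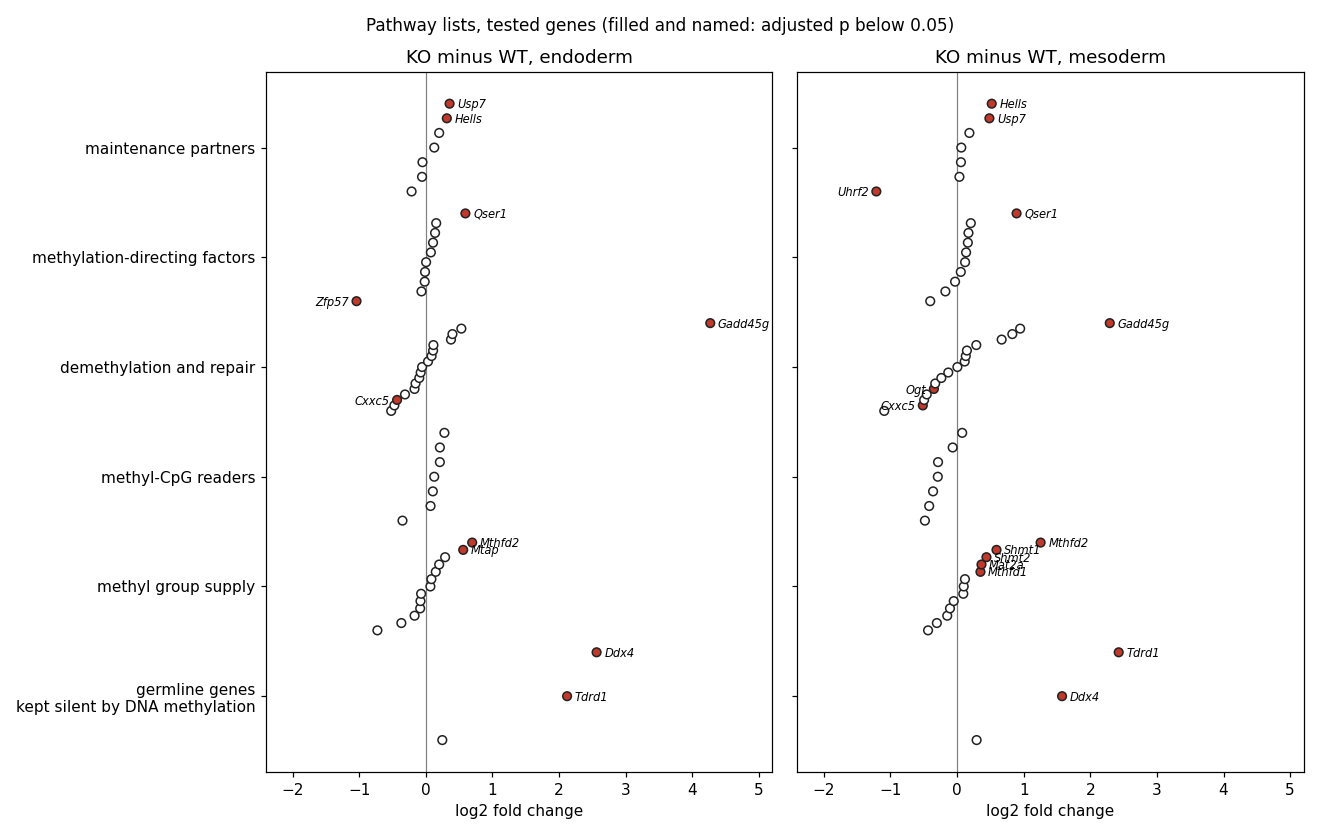
For each list the log2 fold change of its tested genes, arid4b∆ over wild type, is plotted on the x axis for endoderm and for mesoderm, 1 point per gene, filled and named where the adjusted p was under 0.05. Uhrf2 at -1.21 is the lowest of the maintenance partners in mesoderm, and the endoderm point of Gadd45g rests on 1 count in wild type.

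Genes with the pattern most like each member were ranked by Pearson's r of log2(CPM + 1) over the 12 libraries, which fall into 4 groups, among 8834 named genes with a mean of at least 5 CPM. For Dnmt3b they were Snurf and Snrpn (r = 0.977 and 0.976), which come from a shared imprinted locus and had nearly equal counts, so that they may share reads and count as a single pattern: their means were 126 CPM in wild type endoderm, 131 CPM in arid4b∆ endoderm, 81.2 CPM in wild type mesoderm, and 129.6 and 131 CPM in arid4b∆ mesoderm. For Tet1 they were the homeobox gene Six4 (r = 0.962) and Ankrd10 (0.957), and for Tet3 the potassium channel gene Kcnj3 (0.953) and the claudin gene Cldn6 (0.944). For Dnmt3a they were Iqgap1 and Frmd5 (0.972 and 0.964), for Dnmt3l Tcf20 and C77370 (0.958 and 0.95), for Dnmt1 Trim71 and Cbx7 (0.916 and 0.91), and for Tet2 Arhgap23 and Prmt6 (0.844 and 0.835). Among the members themselves, Dnmt3a and Dnmt3b had r = 0.885, Dnmt3a and Tet3 0.818, Dnmt1 and Dnmt3l 0.822, and Dnmt3l and Tet3 -0.725. These values describe 12 libraries that share group, depth and scaling.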

How the data were processed

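Total RNA was sequenced from 12 libraries in 4 groups of 3, named by genotype and lineage in the sample titles. Per the labels' protocols, library preparation was directional and followed depletion of ribosomal RNA. The authors deposited whole-number read counts per gene. The submitters' processing notes name STAR, DESeq2 and the build mm10; the sources used here do not give the counting program, annotation or strand setting. The 7 genes and the lists were chosen with earlier results of these data known.

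From the deposited counts, 26 genes whose cell held a date in wild type endoderm library 1 were left out, and Rn45s was left out of library sizes. Of 347 genes without a symbol, 346 were named from RefSeq. Genes were filtered with filterByExpr (minimum count 10), scaled by TMM and fitted with edgeR 4.0.16 (R 4.3.3) over all 4 groups without covariates; the common biological coefficient of variation was 9.71%. The genotype, lineage and interaction contrasts were tested with the quasi-likelihood test, adjusted by Benjamini-Hochberg over 11635 genes at 0.05. The script was tested on simulated data. Log2 ratios within a library were tested by exact permutation with scipy 1.17.1. Intervals are exact binomial (95%) and cover counting error only. Levels per kilobase use the union of exons of the GENCODE M21 basic annotation (GRCm38), in which no member shares exon bases with another gene. Up to 4 called genes per list and comparison were named, by smallest adjusted p, and the 2 genes most like each member by r; Uhrf1 and Mat2a were added after their values were seen.

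Alternatives were DESeq2 1.42.0 and its size factors, no low count filter, the replicate number as a block, only the groups compared, the abundant genes Mir6236 and Lars2 (49.7% to 69.5% of the counts without Rn45s) left out, and each library left out. Same-numbered libraries deviated together only weakly, so the numbers were not read as pairs. No 2 libraries had identical counts.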

Additional observations from a re-analysis of the deposited data

Results flagged for a closer look

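The effect of arid4b∆ on Uhrf2, the paralog of the Dnmt1 partner Uhrf1, differed between the lineages by a test of that difference: the log2 fold change in endoderm minus that in mesoderm was 1.16 (adjusted p = 0.00101, edgeR's quasi-likelihood test), with a fall of all 3 arid4b∆ libraries below all 3 wild type libraries in mesoderm. The difference passed under each of the 17 alternatives run, with adjusted p up to 0.00604.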

How the results depend on the processing

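Of 621 log2 values of the 7 genes under alternatives, 582 kept their direction and their side of the threshold and 20 changed sign, none of them past the threshold before or after. The number of the 7 called in endoderm between genotypes was 3 with no filter on low counts, 2 with the replicate block, 2 with only the groups compared, and 1 to 2 with single libraries left out. It was 2 to 4 in mesoderm with single libraries left out. For the difference between the lineages' effects it was 1 with no filter and 0 to 1 with single libraries left out, and between the lineages in arid4b∆ cells 1 to 2. The causes were not tested.

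Values that changed sign were that of Tet1 between the wild type lineages (0.008 with no filter, -0.108 to 0.042 with single libraries left out) and, with single libraries left out, those of Tet2 in endoderm (-0.052 to 0.423) and mesoderm (-0.279 to 0.331), Dnmt1 in mesoderm (-0.014 to 0.10), the differences of effects of Dnmt3a (-0.056 to 0.098), Tet1 (-0.092 to 0.093) and Tet2 (-0.131 to 0.487), and, between the arid4b∆ lineages, Tet1 (-0.105 to 0.085) and Tet2 (-0.282 to 0.171). The log2 ratios ran from 0.47 to 0.78 for Dnmt3b to Dnmt3a, 0.57 to 0.91 for Dnmt3b to Dnmt1 and 0.20 to 0.51 for Tet1 to Tet3 with single libraries left out, and Tet1 to Tet3 passed with the replicate block (0.34, exact permutation p = 0.0313).

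Over all genes, the calls between genotypes numbered 1478 in endoderm (836 without wild type library 2) and 2222 in mesoderm (1472 without wild type library 3). For the difference of effects they numbered 163 (377 with no filter, 255 with the replicate block, 104 to 354 with single libraries left out). Between lineages they numbered 1145 in wild type (741 to 1500 over the alternatives) and 216 in arid4b∆ cells (483 with no filter, 377 with the block, 83, 133, 120 and 59 without arid4b∆ endoderm library 2 or 3 or mesoderm library 2 or 3). Same-numbered libraries had deviations correlated at 0.0132 to 0.193, not over 0.1 in every pair, and the numbers were not read as pairs. In the genotype comparisons 4 and 3 of 6 libraries correlated best with their own number, and 6 of 6 did in each lineage comparison. Whether same-numbered libraries share a batch was not tested. With the block, Dnmt3l also passed in endoderm (2.70, adjusted p = 0.0372, edgeR). Dnmt3l could not be tested in the fits of only the endoderm or only the wild type groups, where its counts fell below the filter. Depth limits Dnmt3l, Tet2 and the germline genes.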
